A study of Mus musculus with 8 samples.

Results

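Crossing C57BL/6J mice (B6) with DBA/2J mice (DBA), both inbred, in the 2 possible directions gives hybrids with the same autosomal genotype that differ in which parent gave which chromosome. In a BXD F1 mouse the mother is B6 and the father DBA, and in a DXB F1 mouse the mother is DBA and the father B6. The comparison described here is of 2 BXD with 2 DXB mice, 1 female and 1 male of each cross, and asks whether the direction of the cross is seen in the methylation of liver DNA. Its members are the 479316 autosomal CGs that had at least 10 reads in each of the 4 F1 mice, of 1378392 autosomal CGs read in at least 1 of them. The rule used coverage alone, and no methylation level entered it.

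The livers were taken at 16 weeks of age after a fast of 16 hours, and no group received a treatment. Reduced representation bisulfite sequencing (RRBS) was used, in which DNA is cut by the enzyme MspI at CCGG and fragments of a chosen size are bisulfite converted and read, so that an unmethylated cytosine is read as T. The series holds 8 libraries, the 4 F1 mice and a female and a male of each parental strain, each library from 1 mouse. No methylation level of a parent enters a test here. Parents' levels are given beside single CGs, and their reads sort CGs into sets in some counts and settings.

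Methylation of the cytosine in CG is copied at each cell division by the maintenance methyltransferase, and CG-rich promoters are mostly free of it. A small number of genes are imprinted: they carry methylation set in the egg or in the sperm that is kept on 1 parental chromosome in liver and other tissues. At an imprinted region both crosses hold a methylated and an unmethylated chromosome, so an imprint held alike on B6 and DBA chromosomes gives the same summed level in both. The sum can differ where a single strain's chromosome is read, where the strains hold an imprint at unlike levels, or where a level follows the mother or the father for both chromosomes.

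The labels were checked by the X chromosome, which a male has from its mother. Before the last 100 kb of X that held reads sorted to a strain by a SNP, 98% of sorted calls were B6 in the BXD male and 2.54% in the DXB male. In the females this share was 54.9% (BXD) and 55.4% (DXB), and on the autosomes it lay between 52.3% and 53.4% in the 4 mice. In those last 100 kb, 79.4% of sorted calls of the DXB male were B6. Mean coverage of autosomal CGs was 60.6 reads (BXD female), 82.1 (BXD male), 43.3 (DXB female) and 43.0 (DXB male). At the members, mean reads were 90.2 (BXD female) and 121 (BXD male) against 62.9 (DXB female) and 63.0 (DXB male). Depth thus runs with the direction of the cross. The BXD male library also stood apart in other ways: it read 1286996 autosomal CGs against 857289 to 858855 in the other three. Its share of methylated calls outside CG was 0.460%, against 0.914% to 1.21%. Of the 6 pairs of mice, the 3 that hold this male differed by over 50 percentage points at 0.189% to 0.217% of CGs and the 3 without it at 0.0363% to 0.0461%. The level of CGs within 500 bases of the starts of hepatocyte genes lay between 17.1% and 22.6% (85 CGs), and that of 5 such CGs of immune cell genes between 86.6% and 90.4%. The 2 CGs of endothelial genes lay between 82.9% and 87.7%. Starts of stellate cell genes were at 16.2% to 18.5% (79 CGs) and those of bile duct genes at 20.9% to 24.2% (36 CGs). All promoters were at 15.3% to 16.8%, so a low level is not particular to the hepatocyte list. The methylation of marker starts is a weak check of cell type, and with bulk DNA a change in the mix of cells cannot be told from a change within cells.

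Mean methylation over the members was 53.1% in the BXD female, 52.5% in the BXD male, 52.4% in the DXB female and 51.9% in the DXB male. BXD mice averaged 52.8% ± 0.390 (SD, n = 2) and DXB mice 52.2% ± 0.398 (SD, n = 2). BXD was higher by 0.640 points, with an exact p = 0.333 (two-sided, permuting the 4 mice), and 2 mice against 2 allow no smaller p. On the 19 autosomes it ranged from 0.503 points (chromosome 19) to 0.705 points (chromosome 14). The same 4 mice can be paired in the other two ways, females against males and BXD female with DXB male against BXD male with DXB female, and these give the background for every count below. Females exceeded males by 0.557 points (exact p = 0.667), and the crossed pairing differed by -0.0058 points (exact p = 1). These are plain means over CGs. From reads summed over all CGs the direction turned, to a difference of -2.59 points (exact p = 0.333).

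Single CGs differed little between the crosses. The root mean square difference between the BXD and DXB means was 5.66 points, against 5.84 points for the sexes and 5.61 points for the crossed pairing. Counting of reads alone gives 4.47 points for each. With its variance taken out, 3.48 points are left for direction, 3.76 for sex and 3.39 for the crossed pairing. The median difference was 0.0625 points, and 92.4% of CGs lay within 10 points. Levels of the 4 mice varied 1.64 times as much as counting would give on average (mean dispersion, median 1.13, 442449 CGs with methylated and unmethylated reads).

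**Figure D1:**
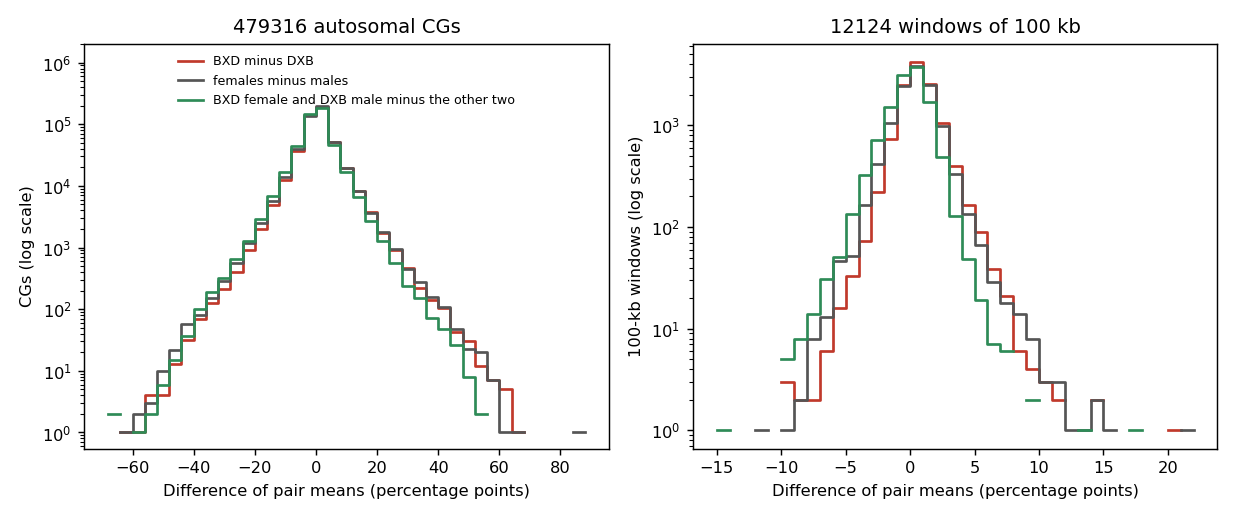
Number of CGs (left) and of 100-kb windows (right), on log axes, by the difference of pair means in percentage points, for BXD minus DXB (red), females minus males (grey) and the crossed pairing (green). The 3 curves lie close together over most of their range, and the direction and sex curves lean to the right: 3088 of 4404 CGs without overlap were higher in BXD and 3313 of 5066 in females.

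A quasi-binomial test, which compares methylated and unmethylated reads between the crosses with the spread between mice estimated over all CGs, called 1 CG for the direction of the cross (0.000226% of 442449 tested, Benjamini-Hochberg adjusted p under 0.05 and over 20 points apart). It called 227 CGs (0.0513%) for sex, 216 of them higher in females (0.0488%) and 11 in males (0.00249%), and 4 (0.000904%) for the crossed pairing. At an unadjusted p under 0.05 there were 20451 CGs for direction (4.62%), 29156 for sex (6.59%) and 25126 for the crossed pairing (5.68%). The direction of the cross gave the lowest of these 3 shares. By limma on the levels the direction of the cross called 0 CGs, with 31497 at an unadjusted p under 0.05. By edgeR it called 311, which is 0.0703% of those tested, against 639 (0.144%) for sex and 146 (0.033%) for the crossed pairing. Whether samples of 1 cross are separate litters is not given in the labels, so the p-values measure the spread between these mice. Each cross is 1 female and 1 male, so the spread within a cross holds any difference between the sexes and cannot be told from it. This also holds for the SDs above and the windows below.

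The CG that passed is on the minus strand at chr13:28292622 (mm9), and no annotated gene lies within 10 kb. It is shown from the MspI site where its reads start, 5′ to 3′ on the minus strand, with the CGs read in capitals, and the called CG is the last of the 3.
Called CG, chr13:28292611-28292660: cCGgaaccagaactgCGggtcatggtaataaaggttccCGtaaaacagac
Its level was 67.2% in the BXD female (64 reads), 94.1% in the BXD male (205 reads), 17.4% in the DXB female (356 reads) and 18.4% in the DXB male (212 reads). Both BXD mice were above both DXB mice, by 62.8 points between means (adjusted p = 0.0246). The CG 23 bases before it on the same reads was at 89.5% to 96.9% and the one 37 bases before it at 99.5% to 100% in all 4 mice. All 4 parents were at 89.5% to 97.7% at the called CG. The sequence up to 50 bases to each side of it has 2337 places in mm9 with at least 90% identity over 90 bases, 170 of them with at least 98%, and whether its reads have a single origin was not tested. The call was lost on leaving out any 1 of the 4 mice and with sex as a covariate. It was also lost with the reads thinned at each CG to the lowest coverage of the 4 mice (adjusted p = 0.898). The difference stayed between 49.3 and 76.2 points without 1 mouse and with thinned reads. These fits leave less to call, with 2247 CGs at an unadjusted p under 0.05 with thinned reads, so their losses say little about stability. Limma on levels and on log2 ratios lost the call too, though both had more CGs at an unadjusted p under 0.05 than the main test. So did a limit of 50 reads, though this CG had at least 64 in every mouse.

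Below it in order of p come 9 CGs, each from a stretch of its own, that did not pass the adjusted threshold and are given as values. The largest of these 9 by size, after one in Pcx, was at Dgkh, which codes for a diacylglycerol kinase. The CG lies on chr14:79125016, 120 bases before the annotated start, and its stretch is shown with that CG second in capitals.
Dgkh, minus strand, chr14:79124981-79125033: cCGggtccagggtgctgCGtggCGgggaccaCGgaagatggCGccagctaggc
It was at 11.1% and 0% in the BXD female and male and at 73.8% and 57.8% in the DXB female and male (36, 93, 61 and 45 reads, adjusted p = 0.291). The CG of the MspI site 16 bases before it behaved in the same way, at 19.4%, 5.32%, 72.1% and 53.3%. The remaining 3 CGs on these reads were between 0% and 5.71% in every mouse, and all 4 parents were at 0% at chr14:79125016. So both DXB mice held methylation at 2 neighbouring CGs that neither BXD mouse nor a parent held to that level.

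Pcx, the gene of pyruvate carboxylase, which feeds oxaloacetate into gluconeogenesis, had the opposite order. The CG at chr19:4602780, inside an MspI site of a coding exon, was at 59.1% (BXD female, 22 reads), 76.6% (BXD male, 47), 7.14% (DXB female, 56) and 4.44% (DXB male, 45), a difference of 62 points (adjusted p = 0.315).
Pcx, minus strand, chr19:4602769-4602781: cCGggtgtaattc
The cytosine of the same CG on the other strand, at chr19:4602779, was at 75.0% to 87.0% in all 4 mice and did not share the difference. B6 parents were at 75.0% and 100% and DBA parents at 87.5% and 55.6% on the minus strand, on 4 to 24 reads.

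By an annotated start of a transcript of Vps8, a gene of vesicle transport to the lysosome, the CG at chr16:21628188 was at 96.8% and 100% in BXD and at 63.2% and 76.5% in DXB (adjusted p = 0.234). The CG 16 bases on was at 92.7% and 94.2% against 60.7% and 74.6%, and the one after it at 93.4% to 96.6% in all 4 mice.
Vps8, plus strand, chr16:21628187-21628223: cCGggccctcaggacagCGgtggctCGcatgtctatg
Near AY036118 the CG at chr17:39980872 had 10134, 12309, 4960 and 5657 reads and was at 8.89% and 8.08% in BXD and 12.7% and 11.9% in DXB (adjusted p = 0.124). The CG at chr1:169270460, 95 bases from the start of mmu-mir-2134-1 and near Tmco1, had 6903 to 13288 reads, and its BXD minus DXB difference was -2.56 points (adjusted p = 0.291). At Sfi1 and Drg1 the CG at chr11:3093600 was at 66.9% and 64.1% in BXD and 56.0% and 49.5% in DXB (adjusted p = 0.234), while the B6 parents were at 78.3% and 30.4% and the DBA parents at 6.20% and 4.53%. These 3 CGs were the most deeply read of the 9, and the largest of their differences was 12.8 points. At chr17:39980872 the DBA parents were at 2.36% and 24.2% and the B6 parents at 13.4% each. At chr1:169270460 the DBA parents were at 4.29% and 26.7% and the B6 parents at 12.8% and 10.2%. At both CGs the 2 DBA mice thus lay further apart than the means of the crosses. The other three CGs, on chromosomes 14, 5 and 10, have no gene within 10 kb and differed by 40.8, 17.9 and 28.1 points, BXD higher (adjusted p = 0.133, 0.291 and 0.291). The sequences up to 50 bases to each side of them have 21, 1 and 41 places in mm9 with at least 90% identity over 90 bases, their own included. The depth at the one on chromosome 14 was unlike, with 998 reads in the DXB male against 15 to 129 in the other mice. That male was at 23.4%, the DXB female at 73.3% and the BXD female and male at 96.3% and 82.2%, so most of the difference rests on the DXB male.

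The binomial rule of the study asks whether the exact 95% interval of each of 2 mice excludes the level of the other, at over 50 points apart. It was applied within each sex and covers counting error only. Between the females it called 172 CGs (0.0359%), 112 of them higher in BXD. Between the males it called 972 (0.203%), 611 higher in BXD. These 972 hold the BXD male, and the pair of the BXD male and female gave 904 (0.189%), while the pair of the DXB mice gave 214 (0.0446%) and that of the BXD female and DXB male 220 (0.0459%). The BXD male and DXB female gave 1039 (0.217%). The female pair, BXD against DXB, had the fewest calls of the 6 pairs of mice. In both sexes and in the same direction 10 CGs were called (0.00209%), 8 of them higher in BXD, against 17 (0.00355%) for sex and 16 (0.00334%) for the crossed pairing.

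Of the stretches that lead these 10 CGs by the smaller of the 2 differences, 4 are given. The CG at chr8:88717820 has no gene within 10 kb and was at 85.7% and 93.9% in BXD and 27.8% and 31.4% in DXB on 14 to 35 reads. The sequence up to 50 bases to each side of it has 35910 places in mm9 with at least 90% identity over 90 bases. At Dgkh the smaller difference was 57.8 points. The CG at chr11:6283502 near Zmiz2 was at 77.8% and 91.4% against 20% and 36.4%, and has 734 places in mm9. At chr7:48613452, with no gene within 10 kb, the levels were 95.2% and 100% against 38.1% and 46.2%. In 1 of these 4 stretches, Dgkh, DXB was the higher cross.

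**Figure D2:**
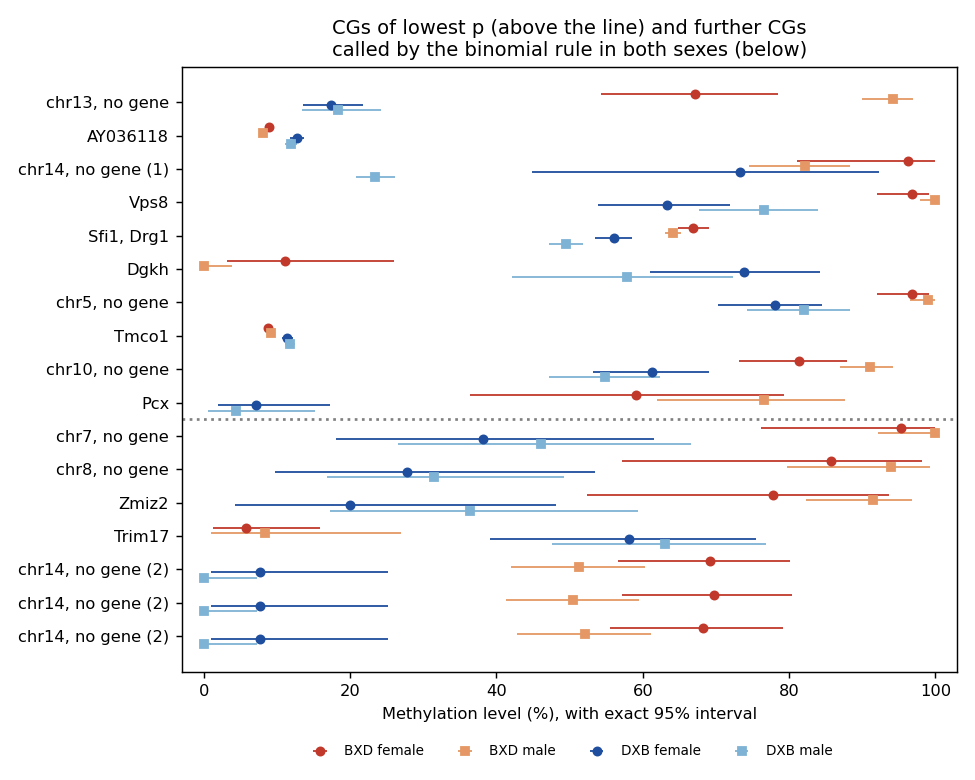
Methylation level (%) with its exact 95% Clopper-Pearson interval for each of the 4 mice, at the 10 CGs of lowest p (above the dotted line) and at 7 further CGs that the binomial rule called in both sexes (below it). Red and orange stand for the BXD female and male, dark and light blue for the DXB female and male. At the chr13 CG the BXD mice lie at 67.2% and 94.1% and the DXB mice at 17.4% and 18.4%, and Dgkh and Trim17 show the opposite order.

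With no test, a CG may be counted where both mice of 1 cross lay above both of the other and the means were over 20 points apart. There were 4404 such CGs for direction (0.919%), 5066 for sex (1.06%) and 3904 for the crossed pairing (0.814%). For direction 3088 (0.644%) were higher in BXD and 1316 (0.275%) in DXB. The share higher in BXD was 70.1%, and it was 85.5% where all 4 mice had at least 50 reads. Both BXD libraries were also the more deeply read, and whether depth has a part in this lean was not tested. For sex 0.691% were higher in females and 0.366% in males, so that females were higher at 65.4%. The crossed pairing divided almost evenly, with 0.402% and 0.412%. Over 50 points apart there were 47 CGs for direction (0.00981%), 40 of them higher in BXD, 47 for sex and 12 (0.0025%) for the crossed pairing. Low coverage held most of them: 3022 of the 4404 had a mouse with 10 to 19 reads, where 1 read moves a level by up to 10 points, and 365 had at least 50 reads in every mouse.

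By place, the share of these CGs was 1.27% between genes, 1.11% in introns, 1.04% in coding exons and 0.457% in promoters, which are low in methylation (15.9%). Between genes and in coding exons the share for direction was below that for sex (1.29% and 1.19%), as it was in introns (1.43%) and promoters (0.558%). By level, it was 3.53% among CGs at 20% to 80%, 0.387% above 80% and 0.150% below 20%. Sex had 4.36%, 0.289% and 0.201% in these classes and the crossed pairing 3.14%, 0.269% and 0.217%. Above 80% the direction of the cross had a larger share than either, and in the other classes it did not exceed sex, while 676 of its 805 CGs there were higher in BXD. Inside an MspI site the share was 1.13%, and 0.735% elsewhere. The other pairings had the same order, 1.22% and 0.918% for sex and 1.01% and 0.650% for the crossed pairing. Most of these CGs stood alone: 82.4% had no other one within 50 bases on the same strand in the same direction, against 75.2% for sex and 84% for the crossed pairing. Where both strands of a CG were read (11694 CGs), the difference on 1 strand and that on the other had a correlation of 0.0421 across CGs for direction, 0.145 for sex and 0.132 for the crossed pairing, a description only, since both strands come from the same libraries.

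Stretches of at least 3 such CGs numbered 65 for direction, 125 for sex and 52 for the crossed pairing. At over 30 points there were 13 for direction, 28 for sex and 16 for the crossed pairing, and 11 of the 13 were higher in BXD. Sex leaned as far, with 25 of 28 higher in females, and the crossed pairing had 12 of 16 one way. In the promoter of Cdk8, a kinase of the Mediator complex, 6 CGs averaged 23.7%, 92.4%, 21% and 19.4% in the BXD female, BXD male, DXB female and DXB male. Near Pparg, a lipid regulator, 3 CGs averaged 22.6%, 92.3%, 14.2% and 16.5%. In both stretches the BXD male stands alone, and the level of the BXD female is close to those of the DXB mice. At other stretches both BXD mice stood apart: 3 CGs in a coding exon near Kifc2, a kinesin, were at 66.7% and 76.0% against 15.4% and 28.3%, and 3 CGs by the start of Rtp2 at 64.6% and 77.6% against 35.2% and 31.0%.

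In windows of 100 kb the mean level of at least 10 CGs was compared by limma. Of 12124 windows 1 was called for the direction of the cross (0.00825%, adjusted p under 0.05), 0 for sex and 0 for the crossed pairing. At an unadjusted p under 0.05 the numbers were 589 (4.86%), 738 (6.09%) and 468 (3.86%). The BXD means lay apart from the DXB means without overlap in 3934 windows (32.4%), against 4480 (37%) and 3710 (30.6%). Window differences had a median of 0.569 points, and 98.4% lay within 5 points.

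The called window is chr7:68600001-68700000. It holds 10 CGs, and its mean was 74.1% in the BXD female, 72.8% in the BXD male, 54.0% in the DXB female and 51.8% in the DXB male. The difference was 20.5 ± 1.26 points (SE, limma, adjusted p = 0.0157), with no overlap between the crosses. The largest window difference for sex was 21.3 points, with an adjusted p of at least 0.0995. The window lies between Snrpn (chr7:67127388-67285105) and Ndn (chr7:69493163-69494814), genes of the imprinted Prader-Willi and Angelman domain, and its only annotated gene is Ube2nl. The call held with sex as a covariate (adjusted p = 0.0434) and on leaving out either DXB mouse (0.000337 and 0.00117). It was lost on leaving out the BXD female (0.0872) or the BXD male (0.0670), while the difference stayed between 19.4 and 21.6 points. It was also lost in windows of 200 kb (smallest adjusted p = 0.0755), when windows with at least 5 CGs were tested (0.252), and from summed reads (11.8 points, 0.938). With reads without a SNP alone, or with at least 30 CGs required, this window held too few CGs to be tested.

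The difference lay at 7 CGs between genes, on the plus strand and read from 2 neighbouring MspI sites, of which the first 6 are shown in capitals.
Window on chromosome 7, plus strand, chr7:68630375-68630612: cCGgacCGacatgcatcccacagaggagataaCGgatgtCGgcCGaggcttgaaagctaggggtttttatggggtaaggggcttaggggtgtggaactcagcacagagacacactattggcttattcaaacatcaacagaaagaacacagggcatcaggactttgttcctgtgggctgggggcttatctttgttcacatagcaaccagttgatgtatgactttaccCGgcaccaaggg
At the last CG shown, chr7:68630601, the BXD female was at 73.0% (74 reads), the BXD male at 72.5% (102 reads), the DXB female at 23.6% (55 reads) and the DXB male at 24.2% (33 reads). At the first, chr7:68630376, both BXD mice were at 100% on 50 reads each and the DXB mice at 72.7% and 78.8% on 22 and 33 reads. The 4 CGs after it were at 72.0% to 88.0% in BXD and 39.4% to 68.2% in DXB. The seventh, chr7:68630636, was at 35.1% and 35.3% against 21.8% and 24.2%. At 6 of these 7 CGs the means were over 20 points apart with no overlap, and at all 7 BXD was higher. At the other three CGs of the window the means differed by under 5 points. At chr7:68648207 the levels were 34.2% and 33.3% in BXD and 35.9% and 40.2% in DXB, at chr7:68648242 84.6% and 79.0% against 78.8% and 80.6%, and at chr7:68648249 94.0% and 97.5% against 93.9% and 88.4%.

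These 7 CGs had reads in both B6 parents, at 49.4% and 37.3% at chr7:68630601, and 0 reads in either DBA parent. The other three were read in both DBA parents. 0 reads of the 7 CGs were sorted by a SNP in the F1 mice, so the strain of origin of F1 reads was not measured. Where only the B6 chromosome is read, the level is that of a maternal chromosome in BXD mice and of a paternal chromosome in DXB mice, which the design otherwise averages. The sequence up to 50 bases to each side of chr7:68630601 has 291 places in mm9 with at least 90% identity over 90 bases and 3 with at least 98%, its own included.

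CGs of that kind were then counted, after these values had been seen. Of the members, 13432 (2.80%) had at least 10 reads in both B6 parents and 0 in both DBA parents. Their median coverage in F1 mice was 56, 70, 39 and 37 reads (BXD female, BXD male, DXB female, DXB male), against 77, 106, 49 and 50 over all members. In the B6 parents it was 92 and 47 against 78 and 38. Of these CGs 161 (1.20%) had no overlap between the crosses at over 20 points, against 193 (1.44%) for sex and 138 (1.03%) for the crossed pairing: a share for direction between those of the other pairings. Over the 173739 CGs with at least 10 reads in all 4 parents the shares were 0.453%, 0.688% and 0.424%. Over 292143 CGs of neither kind they were 1.18%, 1.26% and 1.04%, so the share for direction was close to that of the CGs read in the B6 parents alone.

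Within the domain from Snrpn to 10 kb past Ndn, 35 of 100 CGs were read in the B6 parents alone. Of these 8 had no overlap at over 20 points, against 0 for sex and 1 for the crossed pairing, but 6 of the 8 are the CGs of the called window that prompted the count. The other two differed in opposite directions, by 31.5 and -27.3 points. Of the 18 CGs there with at least 10 reads in all 4 parents, 0 had no overlap at over 20 points, and 0 had an unadjusted p under 0.05. Of the other 47 CGs of the domain 1 had no overlap at over 20 points, with DXB higher: chr7:67637182, read in both strains of parents on 1 to 93 reads, was at 23.8% and 31.8% in BXD and 61.5% and 63.2% in DXB (21, 22, 13 and 19 reads, adjusted p = 0.907). Among CGs read in the B6 parents alone, the largest difference outside the called window was at the end of the domain. The CG at chr7:69496288, 1.5 kb past the annotated end of Ndn, was at 87.6% and 87.8% in BXD and at 54.4% and 57.9% in DXB (97, 98, 68 and 76 reads, adjusted p = 0.788). It is the CG of the MspI site in its stretch.
Past Ndn, minus strand, chr7:69496241-69496289: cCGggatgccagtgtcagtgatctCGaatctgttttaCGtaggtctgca
The other two CGs of these reads were at 50% and 69.4% against 45.6% and 43.4%, and at 87.5% and 88.8% against 76.5% and 70.7%. Of the 8 CGs, the 1 with the opposite order, chr7:68096578, was at 51.7% and 76.1% in BXD and 90.9% and 91.4% in DXB.

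**Figure D3:**
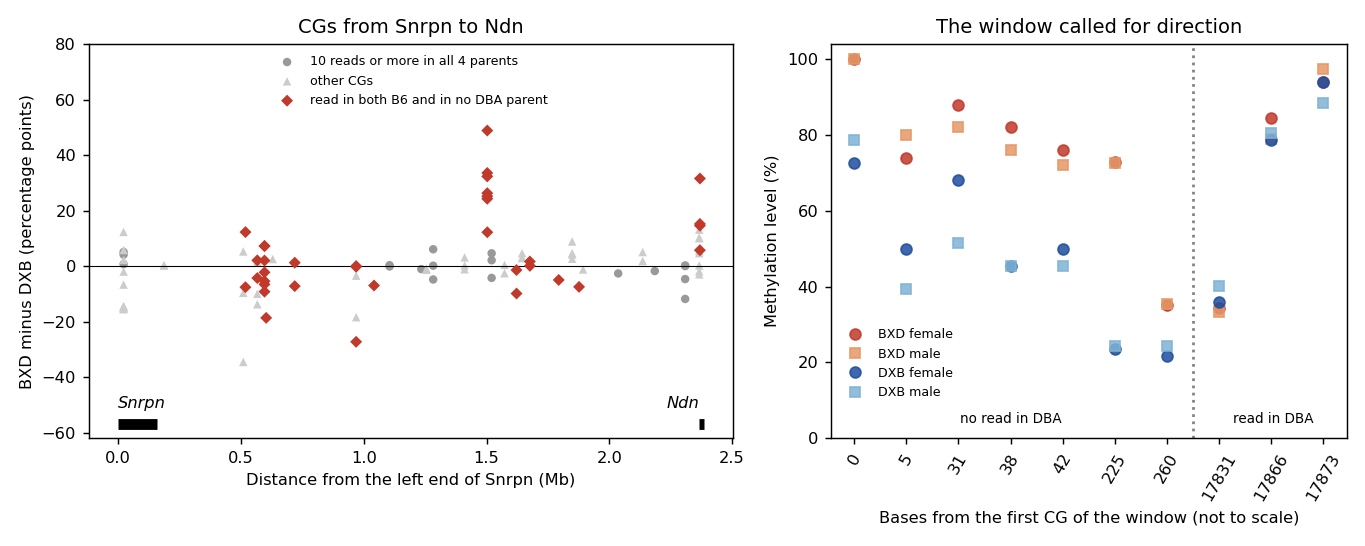
Left, BXD minus DXB (percentage points) of the 100 CGs from Snrpn to 10 kb past Ndn by distance from the left end of Snrpn in Mb, with CGs read in both B6 and no DBA parent as red diamonds; these hold the largest positive differences. Right, level (%) of the 4 mice at the 10 CGs of the called window, in order and not to scale, where BXD (red, orange) lies above DXB (blue) at the 7 CGs without a DBA read. At the 3 with one the mice lie close, and BXD is above at the last, by 4.6 points.

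The largest differences among CGs read in the B6 parents alone were on chromosome 14, with no gene within 10 kb. It is shown because 4 CGs of 1 fragment moved together.
Chromosome 14, minus strand, chr14:54917072-54917132: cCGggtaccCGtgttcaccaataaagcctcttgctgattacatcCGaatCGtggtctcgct
At chr14:54917083 the levels were 69.2% (BXD female, 65 reads), 51.2% (BXD male, 123 reads), 7.69% (DXB female, 26 reads) and 0% (DXB male, 49 reads). Over the 4 CGs the means were 71.1% and 52.4% against 11.5% and 2.04%. The binomial rule called 3 of the 4 CGs in both sexes, and the lowest adjusted p in the quasi-binomial test was 0.584. The 2 B6 parents also differed, at 91.2% in the female and 3.96% in the male. The 2 mice of 1 inbred strain thus lay further apart here than the means of the crosses, and whether the difference between the crosses is such spread between mice was not tested. The sequence up to 50 bases to each side of it has 157 places in mm9 with at least 90% identity over 90 bases.

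Among the 4 other windows of lowest p, none passed (adjusted p = 0.755 for each). On chromosome 12 the window chr12:59300001-59400000 was at 10.2% and 9.34% in BXD and 20.4% and 17.6% in DXB. Its 3 CGs without overlap lie within 33 bases of the start of Clec14a, an endothelial surface receptor, and were at 0% to 38.5% in BXD and 20% to 80% in DXB. The windows on chromosomes 3, 2 and 6 differed by 7.28, 7.82 and 6.76 points, BXD higher, and lie between genes or among immunoglobulin kappa segments. The windows with the most CGs without overlap had 9 of 175 (chr5:115900001-116000000, with Msi1, Pla2g1b, Sirt4 and Pxn, where sex had 6 and the crossed pairing 5) and, of those given here, 7 of 27, 34 and 129. The most in any window was 15 for sex and 8 for the crossed pairing. Near Ptbp2, a neural splicing factor, all 7 CGs lie between chr3:119412440 and chr3:119412483 and averaged 94.2% and 95.7% in BXD and 61.4% and 69.3% in DXB, though the window's difference turned from 7.65 to -0.0181 points with CGs of at least 20 reads. At Atg7, an autophagy enzyme, all 7 were higher in DXB. In the window of Mark4 and Exoc3l2 6 of 7 were higher in BXD, and its difference turned from 2.48 to -0.413 points with summed reads.

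The genes of a list of imprinted genes were examined at their starts, since a change that follows the direction of the cross at both chromosomes would show there. Of 57 genes listed 53 are in the annotation, and 37 had at least 5 CGs within 1 kb of a start, 826 CGs counted per gene. At 18 of the 37 the mean level lay between 20% and 80%. The BXD minus DXB differences ranged from -11.3 to 6.32 points with a median of -0.205 points, and 16 of 37 were above 0. At 9 starts (24.3%) the crosses did not overlap, and some of the 37 starts share CGs. The share was 32.4% of all 100-kb windows, which are a larger unit, and starts of genes outside the list were not counted. At the imprinted starts 0 CGs were called, with adjusted p of 0.907 or above at every CG.

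Among genes of clusters with a maternally methylated control region, Snrpn, a splicing protein gene, was at 46.0%, 32.8%, 45.9% and 42.6% in the BXD female, BXD male, DXB female and DXB male (14 CGs). The low mean of the BXD male rests on minus-strand CGs from chr7:67149739 to chr7:67149787, each at 18.75% on 16 reads in that mouse. Peg10, a retrotransposon-derived gene, and Sgce share their 12 CGs, at 46.8%, 33.3%, 38.4% and 39.3%. The start of Airn, the RNA that silences Igf2r in cis, was at 43.2% and 40.0% in BXD and 52.1% and 44.0% in DXB (15 CGs), with no overlap. The CGs by Igf2r, which clears insulin-like growth factor 2, were at 34.2%, 12.6%, 34.0% and 35.4% (18 CGs). There the BXD male alone was low, and the BXD female lay between the DXB mice. Slc38a4, an amino acid transporter of liver, was at 43.4%, 30.2%, 38.8% and 41.3% (16 CGs) and held 3 CGs without overlap.

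In 2 clusters whose control region is methylated on the paternal chromosome, H19 was at 61.8%, 64.8%, 61.1% and 68.2% (6 CGs) and Meg3 at 67.6%, 63.1%, 65.1% and 64.7% (36 CGs). Dlk1, a growth regulator of the same cluster as Meg3, had the largest positive difference, 60.045% and 60.8% in BXD against 54.6% and 53.6% in DXB (7 CGs), with no overlap. Of further genes under maternally methylated control regions, Ndn, a growth suppressor, was at 22.4% and 19.3% against 16.7% and 15.3% (8 CGs), also with no overlap. Cdkn1c, a cell cycle inhibitor, was at 20.025% and 16.6% against 22.6% and 27.0% (12 CGs), with no overlap and DXB higher. Gnas, of the stimulatory G protein, with 67 CGs, and Grb10, an inhibitor of growth signalling, with 72 CGs, differed by -1.55 and -1.82 points. These differences were given no test. Of the 37 starts 5 differed by over 5 points for direction, 9 for sex and 6 for the crossed pairing.

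**Figure D4:**
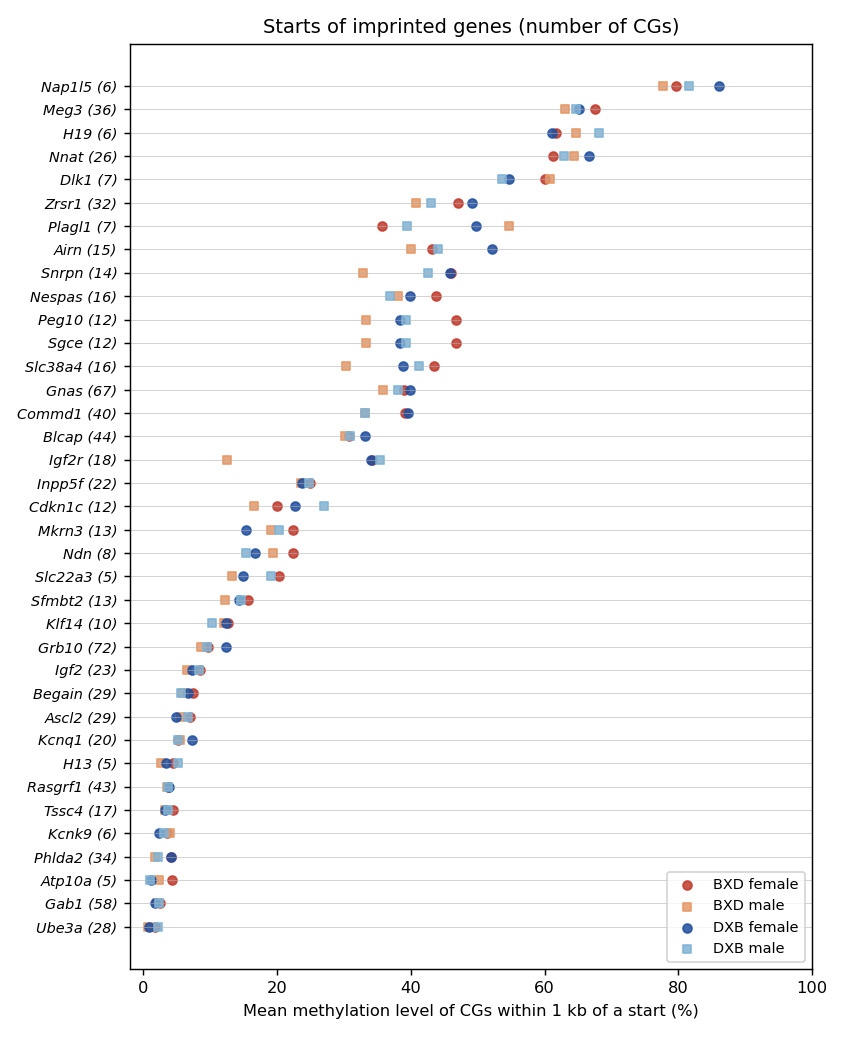
Mean methylation level (%) of CGs within 1 kb of the starts of 37 imprinted genes, with the number of CGs in brackets, for the BXD female (red circle), BXD male (orange square), DXB female (dark blue circle) and DXB male (light blue square). The 4 mice lie close at most starts, and at Igf2r the BXD male stands alone at 12.6%.

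Over all 1696 CGs within 10 kb of imprinted genes, 28 (1.65%, against 0.919% of all members) had no overlap at over 20 points, 14 higher in each cross. The same list had 32 for sex and 24 for the crossed pairing. Of the 21 genes that set or keep methylation and imprints, such as Dnmt1 and Zfp57, 1 of 593 CGs had no overlap. Of a list of genes taken as sex-biased in liver it was 4 of 666 for direction and 23 for sex, with 12 CGs called for sex (0.0513% of all CGs tested were) and 0 for direction. That list holds C4a, Selenbp2 and Lhx9, which the study named for methylation that differed between the sexes in these mice. Its calls for sex were thus partly fixed in advance. The study found C4a and Selenbp2 differently expressed between the sexes, by qPCR and in an expression dataset each. For Lhx9 it found no significant expression difference by qPCR in adult liver. Of the genes of fasting metabolism 5 of 800 CGs had no overlap. None of these lists held a CG called for the direction of the cross, and the numbers at an unadjusted p under 0.05 were 52 of 1601, 21 of 525, 25 of 605 and 40 of 725 tested (3.25%, 4%, 4.13% and 5.52%, against 4.62% of all CGs tested).

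On the X chromosome, which is no part of the autosomal comparison, the crosses differ in genotype in males and not in females. By the binomial rule 2 of 10835 CGs differed between the females (0.0185%) and 60 between the males (0.554%), 48 of them higher in BXD. The ratio of male to female calls was 30 on X and 5.65 on the autosomes. These counts cover counting error only, and the BXD male library is in the male pair.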

How the data were processed

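The deposited tables give, for each cytosine and read class of a library, counts of methylated and of unmethylated reads. The authors aligned reads uniquely to mm9 with BS Seeker and sorted them by SNP into B6, DBA, non-polymorphic and unknown. 4 tables of the authors' own comparisons were not used. Classes were added, and a level is the share of methylated reads at a CG of 1 strand. The members and gene lists were chosen with earlier results of these data known.

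CGs were tested by a quasi-binomial F test (R 4.3.3, dispersion moderated with limma 3.58.1), windows of 100 kb by limma and mean levels by an exact permutation test. edgeR 4.0.16 was an alternative. The tests were tested on simulated data. Named CGs were the 10 of lowest p, 1 for each 1 kb. Named windows were the 5 of lowest p and the 5 with the most CGs without overlap. Named genes were imprinted genes with 5 start CGs, and the 5 leading stretches of the binomial rule. Stretches, CGs without a DBA read and places in mm9 (blastn 2.17.0) were added after the values were seen. Gene parts came from the GENCODE annotation of NCBIM37. With 10 reads, 1 read more or less methylated shifts a CG by 10 points. Intervals (exact 95%) cover counting error only, since each is from 1 mouse. PCR reads carry no molecular identifiers, so copies of 1 molecule count as separate reads and the intervals may be too narrow. A few results that fall under these rules are not reported here.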

Additional observations from a re-analysis of the deposited data

Results flagged for a closer look

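The quasi-binomial test of the crossed pairing called 4 neighbouring CGs on the minus strand of chromosome 7. They lie 4.2 kb past the annotated end of Clcn4-2, a chloride channel gene. Each cross and sex is 1 mouse, so an effect of direction that differs between the sexes cannot be told from spread between mice. The called CGs are the first 4 of the 5 shown in capitals.
Crossed CGs, minus strand, chr7:7230811-7230847: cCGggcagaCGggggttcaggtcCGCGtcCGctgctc
At chr7:7230846 the BXD female was at 89.7%, the BXD male at 37.9%, the DXB female at 71.1% and the DXB male at 92.9%. BXD was thus higher between the females and lower between the males, and the BXD male was the lowest of the 4 mice. The mean of the BXD female and DXB male exceeded that of the other two mice by 32.4, 31.1, 40.5 and 36.8 points at chr7:7230822, chr7:7230824, chr7:7230838 and chr7:7230846 (adjusted p = 0.0308, 0.0128, 0.0308 and 0.0308, Benjamini-Hochberg). The 4 parents ranged from 28.3% to 94.6% at chr7:7230846.

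The binomial rule called 3 CGs in opposite directions in the sexes. BXD minus DXB was -52.0 points in females and 80 in males at chr11:96386819 in an intron of Skap1, -58.6 and 57.9 at chr17:32733674 with no gene within 10 kb, and 59.5 and -51.5 at chr18:77732614 in an intron of Rnf165. None of the 3 passed the test of the crossed pairing (quasi-binomial, adjusted p = 0.827 at the lowest), and they rest on 10 to 37 reads a mouse.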

How the results depend on the processing

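The direction of the mean level, BXD higher, turned to -2.59 points with reads summed over CGs, and leaving out 1 mouse gave 0.359 to 0.922. CGs called were 2 at 5 reads, 0 at 50 reads, 0 by limma on levels (31497 at an unadjusted p under 0.05), 0 by limma on log2 ratios (39555), 0 with sex as a covariate (136), 0 with thinned counts (2247), 311 by edgeR, 157 at an unadjusted p under 0.001, and 0 without any 1 mouse (195 to 3392 at an unadjusted p under 0.05). CGs without overlap numbered 10564 at 5 reads, 1382 at 20, 365 at 50, 26286 over 10 points, 860 over 30, 47 over 50, 8911 to 11245 without 1 mouse, and 787 among CGs read in all 4 parents. Windows called were 0 at 200 kb, 0 with 5 CGs, 2 with 30 CGs (chr6:90100001 and chr14:54900001, adjusted p = 0.0338 for both by limma; the latter holds the stretch at chr14:54917083), 0 with summed reads, 0 with reads without a SNP, 0 without CGs read in the B6 parents alone, and 0 to 3 without 1 mouse. Without CGs read in the B6 parents alone, as with reads without a SNP or with 30 CGs, the called window held too few CGs to be tested. Its absence from those counts was thus fixed in advance. The binomial rule in both sexes called 0 CGs at 50 reads, and of the 479316 members 610 over 20 points and 165 over 30. At an unadjusted p under 0.001 and over 20 points, against 157 CGs for direction there were 739 for sex and 107 for the crossed pairing, of 442449 tested. CGs without overlap over 30 points numbered 1050 for sex and 679 for the crossed pairing. With at least 50 reads in every mouse their shares were 0.191% for direction, 0.382% for sex and 0.113% for the crossed pairing. Most other settings were counted for direction alone, and the CGs counted change with the read limit, so those counts do not measure an effect of direction. The window of Mark4 turned to -0.413 with summed reads and that of Ptbp2 to -0.0181 at 20 reads. The cause was not tested. Of the other values of named CGs 174 kept their direction and side of the threshold, 10 passed it and 9 lost it, and of named windows 88 kept theirs and 4 lost it. Only the called CG and the called window could lose a call, so all of these losses are theirs. A CG or window not called in the main test that stayed so counts as kept, which says little about stability. The settings on parents' reads were chosen after seeing the data. No paired analysis was possible because the labels carry no replicate numbers, other than the fit with sex as a covariate, which sets each sex against its own and is given above. With 2 mice a cross, leaving out 1 assumes that the lone mouse varies like the others. Depth limits single CGs: at 10 reads 1 read is 10 points.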
